A study of Mus musculus with 24 samples.

Results

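The hearts described here came from male C57BL/6 mice that breathed filtered air, either after sham surgery or after transverse aortic constriction (TAC), an operation that narrows the aorta and so raises the pressure against which the left ventricle pumps. The comparison takes the 6 TAC/Air libraries and the 6 Sham/Air libraries, 12 of the 24 libraries of the series. Its groups follow those labels, and it was chosen with earlier results of these data known. The other libraries came from mice that breathed benzene. They entered the choice of genes tested, the scaling between libraries and the shared estimate of the spread, and not the contrast itself. In both groups the mice recovered for 1 week after surgery and then spent 6 weeks in the exposure chamber at 0 ppm benzene (5 days per week, 6 hours each). RNA was taken from left ventricle and septum, poly-A transcripts were sequenced as read pairs, and the files hold whole-number read counts per gene symbol. Sham mice had the operation without the constriction, so the contrast holds surgery constant and differs in the load. The design text gives 6 hearts per group, but no label ties a library to a mouse, so the p-values reflect only how these libraries vary, which may be technical variation.

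Pressure overload makes cardiac muscle cells grow in size, since adult cells seldom divide. Loaded ventricles switch on genes that are otherwise used before birth, such as those for natriuretic peptides, slow myosin and skeletal actin, while calcium cycling and the oxidation of fatty acids decline. Fibroblasts turn into matrix-producing cells and lay down collagen, which stiffens the wall.

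Total counts ran from 4170660 to 12718494 in Sham/Air and from 10479981 to 13581729 in TAC/Air. The lowest total was that of Sham/Air replicate 1, which stood apart: its rank correlations with the other 23 libraries of the series were 0.852 to 0.913, and the first principal component of the 12 libraries, with 62.5% of the variance, separated it from the other 11. The second component, with 17.8%, separated all TAC/Air libraries from the other 5 Sham/Air libraries. Levels also followed the GC content of genes, with rank correlations from -0.71 in Sham/Air replicate 1 to 0.58 in Sham/Air and from -0.37 to 0.55 in TAC/Air. They fell into blocks within each group. Sham/Air replicates 4 to 6 had 0.41 to 0.58, TAC/Air replicates 1 to 3 had 0.54 to 0.55, and the other libraries had at most 0.05. No 2 libraries of a group held the same counts, and the closest pair differed by 1.88 times the counting variance. Pairs within TAC/Air replicates 1 to 3, or within 4 to 6, differed by 2.1 to 9.46 times, and pairs across them by 10.4 to 39.9 times. Within Sham/Air replicates 2 and 3, or 4 to 6, it was 1.88 to 3.48 times, and across them 6.99 to 16.9 times. The cause of these blocks was not tested. Below, levels are in CPM (counts scaled to library size with TMM factors), means are given ± SD and log2 fold changes (TAC/Air minus Sham/Air) ± SE, with n = 6 libraries per group.

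The labelled tissue was checked against fixed marker genes. The summed level of 4 cardiomyocyte markers (Myh6, Tnnt2, Actc1 and Ryr2) was 45746 to 67537 CPM in sham and 30111 to 36454 CPM after TAC. Of these markers Myh6 fell most, with medians of 26796 CPM in sham and 15726 CPM after TAC. The medians were 9121 and 6537 CPM for Tnnt2, 11514 and 10392 CPM for Actc1, and 1760 and 1393 CPM for Ryr2. In bulk tissue, fewer cells of a type, less RNA per cell and a change of the marker genes themselves cannot be told apart. The summed level of 3 endothelial markers had a median of 803 CPM in sham and 810 CPM after TAC, that of 3 fibroblast markers 212 and 253 CPM, and that of 3 macrophage markers 101 and 114 CPM. Atrial markers (Sln, Myl7 and Myl4) summed to at most 75.1 CPM, and the skeletal myosin gene Myh4 had no count in any of the 12 libraries.

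Genes are grouped below by lists, and a list's counts cover only the members that passed the low-count filter. TAC changed the levels of muscle, matrix and metabolic genes. Of 13571 genes tested, 1195 rose (8.81%) and 998 fell (7.35%), 16.2% in all, at an adjusted p under 0.05. The rises were larger: 390 genes rose at least 2-fold (2.87%) and 120 fell at least 2-fold (0.884%), and at least 4-fold changes numbered 109 higher and 9 lower. The median log2 fold change was 0.74 among genes that rose, -0.53 among genes that fell and -0.01 over all genes tested. Changes under 1.5-fold made up 978 of the calls. In a fit of the 2 groups alone, which also filtered and scaled these 12 libraries by themselves, 1278 of 13213 genes were called. List counts of at least 5 that fell over 1.5 times in that fit are given beside the list. Higher genes were 54.5% of the calls, and 43.2% (1621 higher, 2130 lower) with offsets for the GC content and length of genes. Every TAC/Air library lay above every Sham/Air library for 784 genes (5.78%) and below for 504 genes (3.71%), and 1228 of the called genes were among these.

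**Figure D1:**
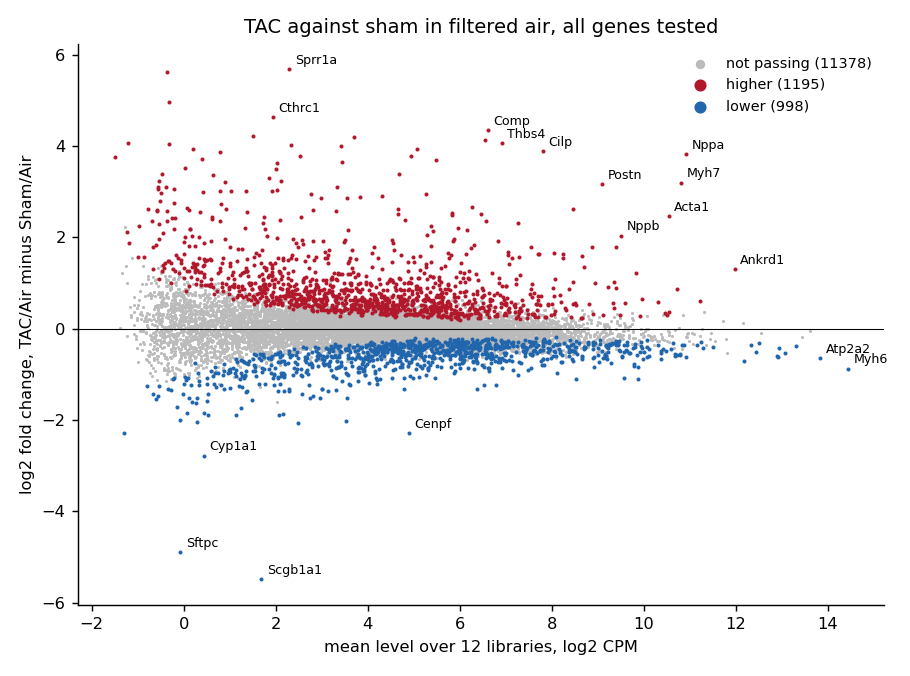
Log2 fold change (TAC/Air minus Sham/Air) of each of the 13571 genes tested against its mean level over the 12 libraries in log2 CPM; red genes (1195) rose, blue genes (998) fell, grey genes did not pass. More genes rose at least 2-fold (390) than fell at least 2-fold (120).

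Stress genes of the ventricle rose strongly. Nppa encodes atrial natriuretic peptide, a hormone that promotes salt loss. It ranged from 155 to 292 CPM in sham (median 272) and from 2965 to 4229 CPM after TAC (median 3587), a log2 fold change of 3.82 ± 0.16 (adjusted p = 3.39e-15). Nppb, for brain natriuretic peptide, ranged from 123 to 352 CPM in sham (median 302) and from 1063 to 1254 CPM after TAC (median 1174), a log2 fold change of 2.04 ± 0.16 (adjusted p = 3.77e-10). For both genes the groups did not overlap, and Sham/Air replicate 1 was the lowest sham library. Skeletal actin gene Acta1 ranged from 279 to 534 CPM in sham and from 2385 to 2646 CPM after TAC (2.46 ± 0.14, adjusted p = 1.45e-12), again without overlap. Ankrd1, a stretch-responsive repressor and sarcomere protein, made the largest gain of all called genes in mean CPM. It ranged from 1897 to 4099 CPM in sham (median 1990) and from 5168 to 6202 CPM after TAC (median 5747), a log2 fold change of 1.30 ± 0.15 (adjusted p = 3.4e-07). Here Sham/Air replicate 1 was the highest sham library, at 4099 CPM, and without it the value was 1.54.

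Of 25 tested fetal and stress genes, 16 rose and 1 fell, with a median log2 fold change of 0.63. Sprr1a, a small proline-rich protein first known from skin, was at 0 to 0.325 CPM in sham and at 6.55 to 11.8 CPM after TAC, and its fitted log2 fold change of 5.68 ± 0.41 was the highest of the called genes that averaged 1 CPM or more. Ccn2, the connective tissue growth factor gene, moved from a narrow sham range of 93.1 to 104 CPM to 579 to 629 CPM (2.62 ± 0.09). The actin-binding gene Synpo2l rose from 127 ± 23.0 to 400 ± 49.5 CPM. Slow skeletal troponin T gene Tnnt1, also on this list, fell by 0.90 on the log2 scale. Xirp2, an actin-binding protein of the intercalated disc, overlapped between the groups because of 1 library: Sham/Air replicate 1 stood at 3301 CPM against 660 to 903 CPM in the other sham libraries and 1867 to 2598 CPM after TAC. Its log2 fold change was 0.88 ± 0.28 with that library and 1.51 without it. With any 1 of Sham/Air replicates 2 to 6, TAC/Air replicate 5 or TAC/Air replicate 6 left out instead, and in the fit of the 2 groups alone, Xirp2 no longer passed.

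The promoters of 5 of these genes are shown because the genes rose together and the windows can be read for letters bound by known stretch-responsive factors. Each is the 250 bases before the start, from RefSeq on GRCm38.p6, a newer build than the mm9 named in the submitters' processing notes. Capitals mark M-CAT letters (CATTCC or GGAATG, the TEAD element), GATA letters (AGATAA or TTATCT), AP-1 letters (TGACTCA or TGAGTCA) and the CArG box of serum response factor, searched on both strands.
Nppb at chr4:147985650-147985899, plus strand: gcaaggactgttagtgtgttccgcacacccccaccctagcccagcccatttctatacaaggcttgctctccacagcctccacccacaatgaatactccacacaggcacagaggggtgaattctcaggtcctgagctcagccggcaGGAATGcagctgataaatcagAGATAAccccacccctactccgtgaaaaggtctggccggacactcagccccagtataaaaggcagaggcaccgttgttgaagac
Nppa at chr4:148000472-148000721, plus strand: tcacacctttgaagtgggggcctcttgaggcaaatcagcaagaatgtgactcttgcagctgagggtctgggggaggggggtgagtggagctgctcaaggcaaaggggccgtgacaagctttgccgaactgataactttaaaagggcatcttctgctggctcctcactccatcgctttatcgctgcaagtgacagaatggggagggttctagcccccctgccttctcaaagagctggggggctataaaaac
Acta1 at chr8:123894776-123895025, minus strand: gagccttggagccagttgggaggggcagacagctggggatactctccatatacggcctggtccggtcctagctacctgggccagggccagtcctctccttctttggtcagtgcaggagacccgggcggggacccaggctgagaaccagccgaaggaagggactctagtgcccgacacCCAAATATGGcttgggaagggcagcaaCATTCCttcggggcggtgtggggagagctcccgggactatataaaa
Ankrd1 at chr19:36119845-36120094, minus strand: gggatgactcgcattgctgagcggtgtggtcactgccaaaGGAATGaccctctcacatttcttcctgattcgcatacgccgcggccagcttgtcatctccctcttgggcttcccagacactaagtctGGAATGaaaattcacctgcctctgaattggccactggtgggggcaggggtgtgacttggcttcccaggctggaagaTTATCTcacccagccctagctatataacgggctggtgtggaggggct
Sprr1a at chr3:92485882-92486131, minus strand: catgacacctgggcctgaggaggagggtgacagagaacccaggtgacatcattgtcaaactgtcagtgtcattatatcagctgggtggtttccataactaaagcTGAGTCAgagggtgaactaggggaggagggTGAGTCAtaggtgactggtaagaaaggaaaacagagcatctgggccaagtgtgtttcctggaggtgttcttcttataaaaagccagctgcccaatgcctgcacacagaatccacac
The M-CAT letters occurred 2 times in Ankrd1, 1 time each in Nppb and Acta1, and not in the Nppa or Sprr1a window. The CArG box occurred in Acta1 and the GATA letters in Nppb and Ankrd1, and Sprr1a held 2 AP-1 matches. In the same search the window of Myh6, which fell, held 1 M-CAT match, that of Thbs4 held 2, and of 2 start sites of Myh7 only 1 had a match. Of 32851 promoters of this length, 12.6% held M-CAT letters, 9.99% GATA letters, 4.46% AP-1 letters and 1.47% a CArG box. A match is a description of letters and was not tested as a binding site.

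Target genes of YAP and TEAD, coactivator and DNA-binding partner in a stretch-sensitive pathway, showed 11 of 29 tested members higher and 0 lower, with 18 not passing. Besides Ccn2 and Ankrd1, the growth factor gene Tgfb2 rose from 13 to 30.1 CPM in sham to 41.5 to 52.2 CPM after TAC (1.46 ± 0.14), Vgll3, a TEAD cofactor, rose by 1.14 ± 0.15, and Ccn1, a matricellular protein gene, by 0.77 ± 0.11. The median over the list was 0.23. Without Sham/Air replicate 1 there were 12 higher and 2 lower.

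**Figure D2:**
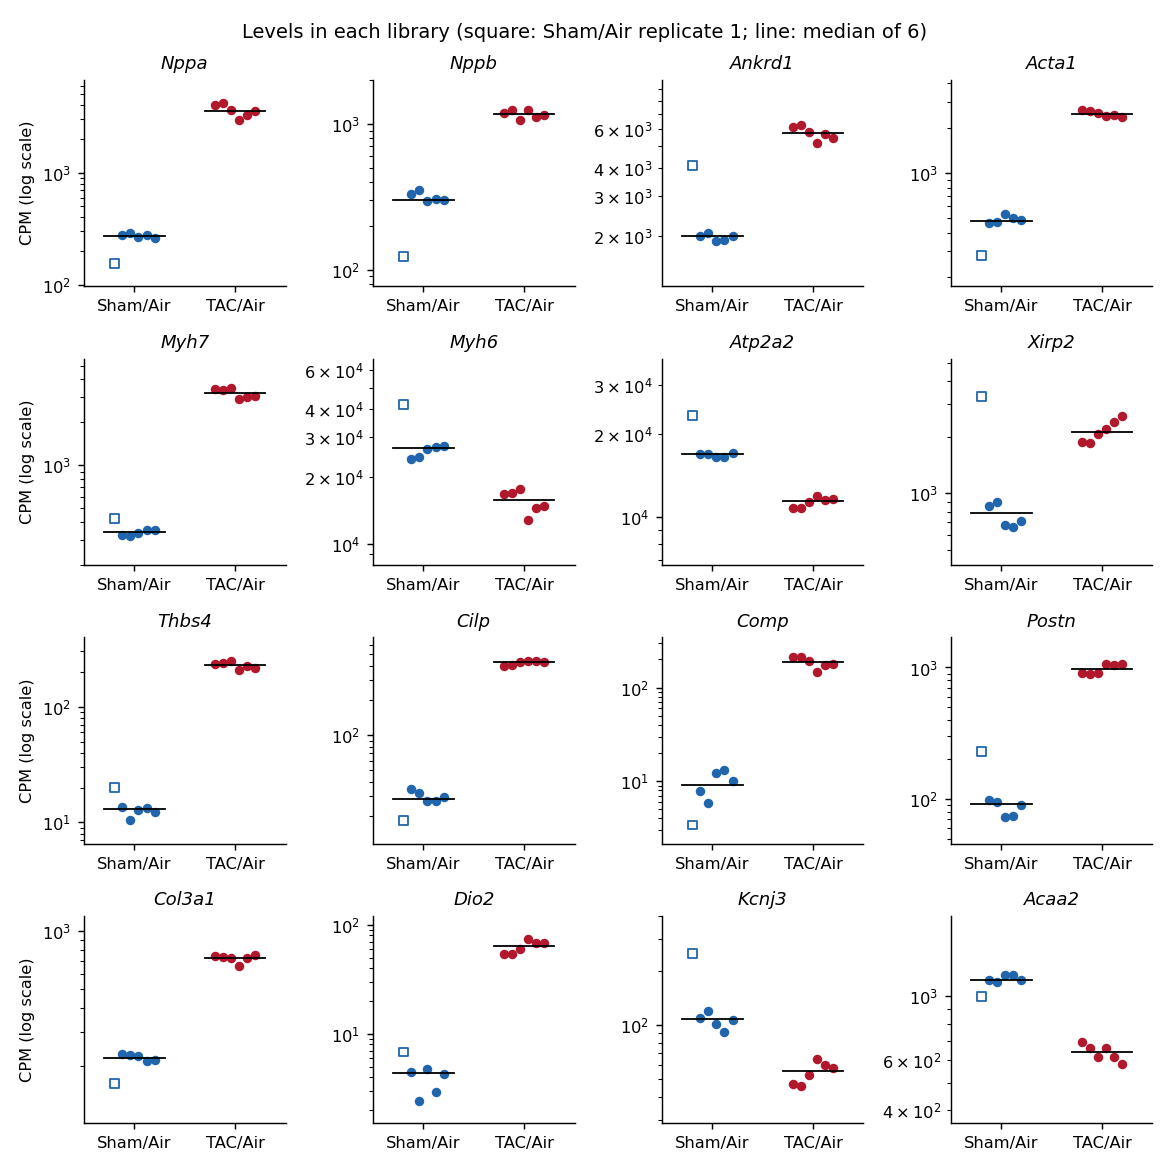
Level of 16 named genes in each library in CPM on a log scale; blue, Sham/Air; red, TAC/Air; the square is Sham/Air replicate 1 and the line the median of 6. The groups overlap only in the Xirp2 panel, where the square (3301 CPM) lies above every TAC/Air library.

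Myosin heavy chain and sarcomeric actin genes shifted between isoforms, and the troponin and light chain pairs given below did not shift in this way. Slow myosin gene Myh7 rose from a range of 319 to 424 CPM to 2918 to 3500 CPM (3.20 ± 0.12, adjusted p = 2.93e-16), while Myh6, the fast myosin of the adult mouse ventricle, fell from 23945 to 42092 CPM to 12852 to 17597 CPM (-0.88 ± 0.13, adjusted p = 1.51e-05). Neither gene's groups overlapped. As a share of the counts of both genes, Myh7 took 1.23% ± 0.120 in sham and 17.2% ± 0.688 after TAC. Acta1 took 3.80% ± 0.912 of the counts of Acta1 and Actc1 in sham and 19.6% ± 1.30 after TAC. Such shares are of counts, not per length, and they do not depend on scaling between libraries. How reads shared by near-identical gene copies were counted is not given in the sources used here, so the levels of such pairs are uncertain to that degree.

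The 20 isoform pairs were chosen with earlier results of these data known, so their p-values are not an independent test. Of these pairs, 12 had a different share between the groups (two-sided exact permutation test, Benjamini-Hochberg adjusted p from 0.00481 to 0.0108). The smallest unadjusted p that 6 against 6 can give is 0.00216. In 9 of the 12 the adjusted p was 0.00481 and the TAC range lay fully above the sham range, among them both pairs just named. Glucose transporter gene Slc2a1 went from 3.60% ± 0.476 to 6.91% ± 0.973 of its pair with insulin-responsive Slc2a4. Hexokinase gene Hk1 went from 28.9% ± 2.46 to 38.7% ± 2.33 of its pair with Hk2, phosphofructokinase gene Pfkp from 5.48% ± 1.44 to 11.9% ± 0.661 with Pfkm, and lactate dehydrogenase gene Ldha from 27.6% ± 4.08 to 37.1% ± 0.957 with Ldhb. Enolase gene Eno1 rose from 8.48% ± 1.56 to 15.2% ± 1.67 of its pair with Eno3, and creatine kinase gene Ckb from 1.55% ± 0.534 to 3.53% ± 0.265 with Ckm. Slc2a4, Pfkm, Eno3 and Ckm are the forms typical of muscle, while Ldhb is the subunit typical of heart. Tnnt1 lost against Tnnt2, from 0.133% ± 0.0178 to 0.0941% ± 0.0140, and Kcnd2 against Kcnd3, from 61.2% ± 2.85 to 54.3% ± 3.03. Pairs that did not pass numbered 8 and included the contractile pairs Tnni1 with Tnni3, Myl7 with Myl2 and Myl4 with Myl3, and also Cpt1a with Cpt1b. Without Sham/Air replicate 1, 16 pairs passed.

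**Figure D3:**
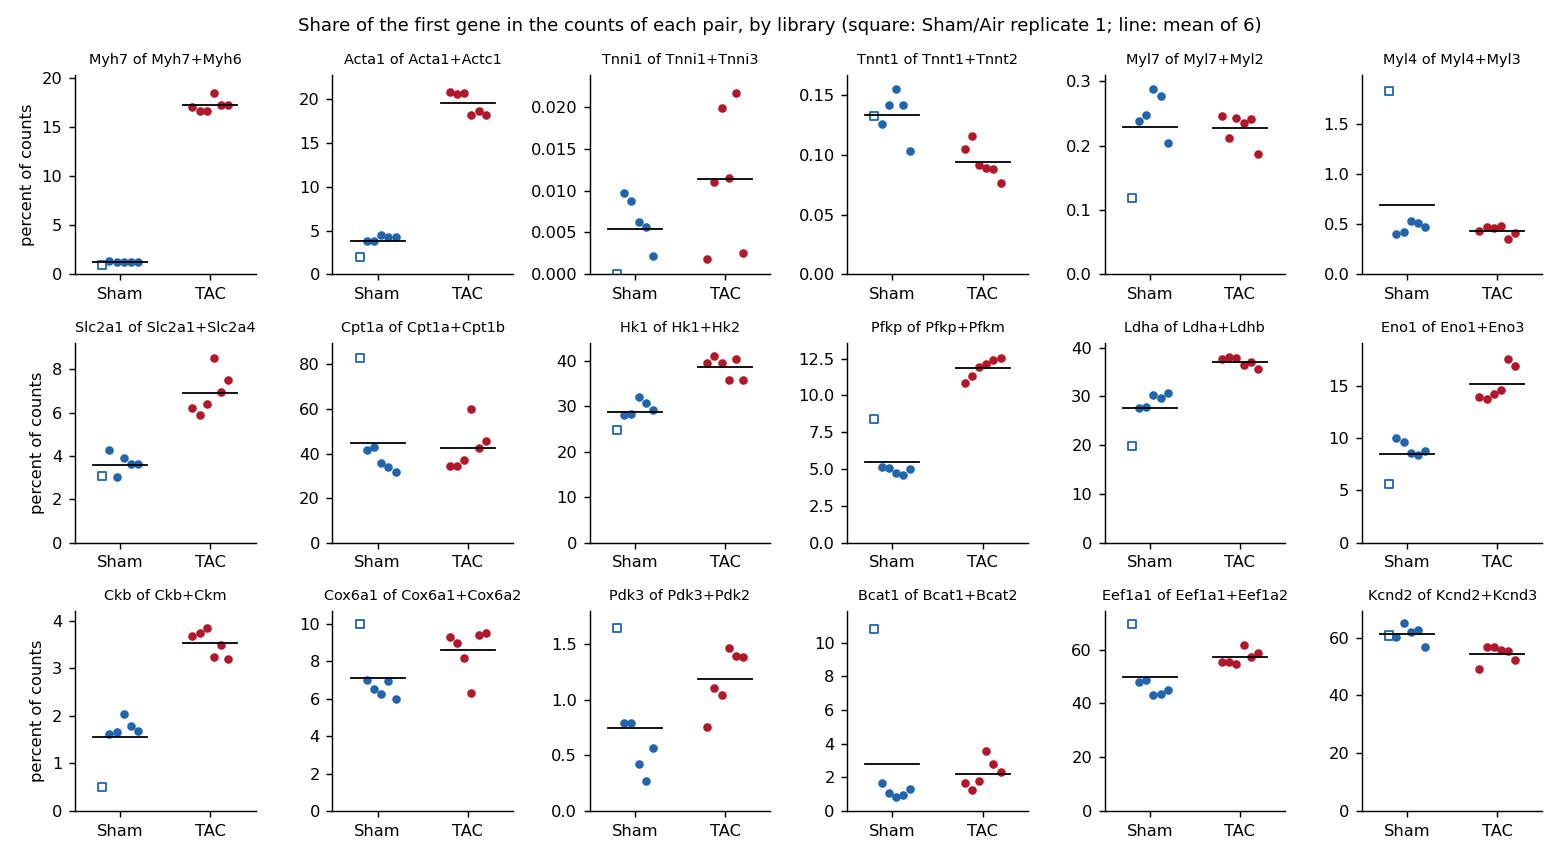
Share of the first-named gene in the counts of each of 18 of the isoform pairs, in percent, by library; blue, Sham/Air; red, TAC/Air; the square is Sham/Air replicate 1 and the line the mean of 6. In the Myh7 panel the sham libraries sit near 1.23% and the TAC/Air libraries near 17.2%, and in the Cpt1a and Bcat1 panels the square stands far from the other sham libraries.

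Adult sarcomere genes had 8 of 24 tested members lower and 1 higher, with a median of -0.18. After Myh6, the cardiac troponin I gene Tnni3 fell from 5739 ± 449 to 3543 ± 626 CPM, tropomyosin gene Tpm1 from 11351 ± 1827 to 8738 ± 699 CPM, troponin T gene Tnnt2 from 8969 ± 499 to 6710 ± 1347 CPM and the light chain gene Myl2 from 9161 ± 1246 to 6101 ± 1574 CPM. The groups overlapped for Tnnt2 and Myl2. In the fit of the 2 groups alone 3 sarcomere genes fell, and Tpm1 and Tnnt2 did not pass. The M-band gene Myom2 rose, by 0.30 ± 0.08.

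Genes of the Z-disc, where actin filaments are anchored, and of the cytoskeleton had 21 of 56 members higher and 2 lower, with a median of 0.27. Ankrd23, a muscle ankyrin repeat protein, rose from 210 to 688 CPM in sham to 952 to 1458 CPM after TAC (1.21 ± 0.18). Desmin gene Des, the intermediate filament of muscle and counted among the stress genes above, rose from 1902 to 2892 CPM on average (0.60 ± 0.16), though its groups overlapped. Keratin gene Krt18, an intermediate filament of epithelia, rose from at most 0.802 CPM to 2.11 to 4.79 CPM. The tubulin gene Tuba4a fell by 0.67, and the actin-organizing gene Fhod3 by 0.36, on the log2 scale. Integrin and intercalated disc genes, which tie cells to matrix and to each other, had 9 of 37 higher and 3 lower, and 9 higher and 8 lower with the offsets for GC content and length. Itga11, a collagen receptor subunit, rose by 1.68 ± 0.14, and desmoglein gene Dsg2 fell by 0.76.

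Calcium handling genes fell in part. Atp2a2, the pump that returns calcium to the sarcoplasmic reticulum, ranged from 16533 to 23282 CPM in sham (median 16906) and from 10764 to 11953 CPM after TAC (median 11457), a log2 fold change of -0.65 ± 0.08 (adjusted p = 9.77e-07). The groups did not overlap. Of 30 tested calcium genes 7 fell and 1 rose, with a median of -0.19. The ryanodine receptor gene Ryr2 fell from 1950 ± 475 to 1331 ± 213 CPM. The calcium-binding protein gene Hrc was at 2541 CPM in Sham/Air replicate 1, at 917 to 1147 CPM in the other sham libraries and at 351 to 718 CPM after TAC (-1.11 ± 0.20, and -0.80 without that library). For phospholamban gene Pln, the inhibitor of the pump, Sham/Air replicate 1 stood at 16082 CPM against 8026 to 9840 CPM in the other sham libraries and 6167 to 8375 CPM after TAC. Its log2 fold change was -0.53 ± 0.14, and -0.35 without that library. Triadin gene Trdn no longer passed without it (-0.73 ± 0.23, and -0.28 without, adjusted p = 0.0523). The number of calcium genes that fell was 10 without Sham/Air replicate 1, 13 with the offsets and 4 in the fit of the 2 groups alone, where Pln and Trdn did not pass.

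Potassium channel genes, which set how fast the heart repolarizes, had 12 of 29 lower and 2 higher, with a median of -0.28. Kcnj3 and Kcnj5 encode both subunits of the acetylcholine-activated channel. Kcnj5 fell from 96.1 to 113 CPM in sham to 60.8 to 66.7 CPM after TAC (-0.73 ± 0.07, adjusted p = 4.14e-08). Kcnj3 fell from 91.7 to 250 CPM to 46.0 to 65.1 CPM (-1.24 ± 0.18), with Sham/Air replicate 1 as the highest library, and by 0.95 on the log2 scale without it. The transient outward channel gene Kcnd2 fell from 33.4 ± 5.23 to 18.5 ± 1.98 CPM, the silent subunit gene Kcnv2 by 1.22 and Abcc9, the sulfonylurea receptor of the ATP-sensitive channel, by 0.84 on the log2 scale. Two-pore channel gene Kcnk2 rose, by 0.55 ± 0.12, and the beta subunit gene Kcne4 by 0.73 ± 0.18. Without Sham/Air replicate 1, 18 potassium channel genes fell and 3 rose. Sodium, pacemaker and gap junction genes had 6 of 23 lower, among them pacemaker channel gene Hcn4 (-0.77 ± 0.17) and the neuronal sodium channel gene Scn10a (-1.23 ± 0.26), and 2 higher. Without that library 6 were higher.

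Of 35 adrenergic, muscarinic and cyclic nucleotide genes, which carry nerve signals into the heart muscle cell, 9 fell and 2 rose. In the fit of the 2 groups alone 3 fell and 2 rose, and without Sham/Air replicate 1 the numbers were 11 and 5. The alpha-1 adrenergic receptor genes Adra1a and Adra1b fell by 0.54 and 0.70, the muscarinic receptor gene Chrm2 by 0.65 and the phosphodiesterase gene Pde4d by 0.51, on the log2 scale, and Pde4d did not pass in the fit of the 2 groups alone. The 2 genes that rose were Adcy7, an adenylyl cyclase, from 22.2 ± 2.19 to 60.9 ± 6.89 CPM, and Grk5, a kinase that desensitizes receptors, from 36.3 ± 2.47 to 66.8 ± 2.04 CPM. In the renin-angiotensin and endothelin list, 3 of 16 rose and 4 fell, and without Sham/Air replicate 1 the numbers were 5 and 4. Endothelin-3 gene Edn3 rose from 0.976 to 3.31 CPM in sham to 10.8 to 13.2 CPM after TAC (2.60 ± 0.17), and Ace, the angiotensin-converting enzyme, from 97.1 ± 17.7 to 220 ± 20.7 CPM. The angiotensin II receptor gene Agtr1a (-0.60 ± 0.12), the mineralocorticoid receptor gene Nr3c2 (-0.57 ± 0.10) and the Mas receptor gene Mas1 (-2.01 ± 0.36) fell.

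Feedback regulators of growth signals had 6 of 30 higher and 4 lower. Rcan1, a calcineurin inhibitor that calcineurin itself induces, rose from 61.4 to 115 CPM in sham to 294 to 336 CPM after TAC (1.63 ± 0.11, adjusted p = 9.55e-12). Spry1, an inhibitor of growth factor receptor signalling, rose by 0.70 ± 0.10, and Rgs2, which shortens G protein signalling, fell by 0.78. Thyroid hormone genes had 2 of 11 higher and 5 lower (2 in the fit of the 2 groups alone, and 8 with the offsets). Dio2, the deiodinase that activates the hormone, ranged from 2.44 to 6.82 CPM in sham (median 4.39) and from 54.4 to 75.0 CPM after TAC (median 63.5), a log2 fold change of 3.93 ± 0.18 (adjusted p = 1.28e-14). Dio3, the deiodinase that inactivates it, was at 0 to 0.429 CPM in sham and at 0.780 to 1.57 CPM after TAC. For both genes the groups did not overlap. The receptor gene Thrb fell by 0.70 and its partner gene Rxrg by 0.44, on the log2 scale.

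Extracellular matrix genes rose in large number. Of 12 tested fibrillar and associated collagens 11 rose (Col1a1, Col1a2, Col3a1, Col5a1, Col5a2, Col5a3, Col11a1, Col12a1, Col14a1, Col16a1 and Col27a1) and Col11a2 did not pass, with a median of 1.66. Col3a1, a major collagen of the heart, ranged from 161 to 231 CPM in sham (median 219) and from 663 to 749 CPM after TAC (median 730), a log2 fold change of 1.78 ± 0.12 (adjusted p = 1.26e-11). Col1a1 ranged from 68.2 to 101 CPM in sham and from 190 to 343 CPM after TAC, with TAC/Air replicate 4 the lowest of the loaded hearts. Col12a1, which binds to the surface of collagen fibrils, rose from 3.09 to 5.11 CPM to 49.3 to 62.8 CPM (3.79 ± 0.14). As a share of all counts the list summed to between 0.0424% and 0.0623% in sham libraries and between 0.177% and 0.210% after TAC. Of 32 basement membrane and other collagens and laminins, 14 rose and 1 fell. Col8a1, a short-chain collagen, rose from 51.9 to 256 CPM on average (2.31 ± 0.09), its partner Col8a2 by 4.01 ± 0.31 and Col22a1, a collagen of tissue junctions, by 3.79 ± 0.31, while Col6a6 fell by 1.48 on the log2 scale.

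Matricellular and cartilage-type genes, whose proteins adjust how cells contact the matrix, had 25 of 37 higher and 1 lower, with a median of 1.20. Thbs4, a thrombospondin, ranged from 10.4 to 19.9 CPM in sham (median 13.1) and from 207 to 248 CPM after TAC (median 229), a log2 fold change of 4.07 ± 0.14 (adjusted p = 6.83e-17). Cilp, the cartilage intermediate layer protein gene, ranged from 18.5 to 34.4 CPM (median 28.5) and from 399 to 437 CPM (median 429), a log2 fold change of 3.89 ± 0.13 (adjusted p = 2.21e-17). Comp, cartilage oligomeric matrix protein, ranged from 3.41 to 13.1 CPM and from 148 to 215 CPM (4.35 ± 0.24). No sham library reached a TAC/Air library for any of these, and the same held for fibronectin gene Fn1, at 62.8 and 202 CPM on average, and for Mfap5, a microfibril protein, at 31.0 and 158 CPM. Cthrc1, a secreted protein of activated fibroblasts, was at 0 to 0.645 CPM in sham and 5.66 to 8.96 CPM after TAC. Spon1, an F-spondin, fell by 0.27.

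Proteoglycan genes had 12 of 31 higher and 1 lower. Biglycan gene Bgn, a small leucine-rich proteoglycan, ranged from 279 to 331 CPM in sham and from 972 to 1117 CPM after TAC (1.78 ± 0.08), and fibromodulin gene Fmod, of the same family, rose by 3.69 ± 0.23. Genes that process collagen or build elastic fibres had 22 of 36 higher and 2 lower. The microfibril protein gene Mfap4 rose by 2.54 ± 0.16. Among the lysyl oxidases, which cross-link collagen and elastin, Lox rose from 9.33 ± 4.86 to 67.6 ± 9.08 CPM, Loxl3 from 6.86 ± 2.07 to 43.7 ± 3.20 CPM, Loxl2 by 1.66 ± 0.12, Loxl1 by 1.76 ± 0.20 and Loxl4 by 1.24 ± 0.21 on the log2 scale. Ltbp2, a latency protein relative found on microfibrils, ranged from 3.41 to 11.9 CPM in sham and from 164 to 194 CPM after TAC (4.14 ± 0.20). Tll2, a collagen-processing protease, fell by 1.88 and the fibulin gene Efemp1 by 1.15 on the log2 scale. Proteases and inhibitors of the matrix had 17 of 43 higher and 3 lower. The inhibitor gene Timp1 rose by 3.10 ± 0.27, the gelatinase gene Mmp2 by 1.54 ± 0.11 and Adamtsl2, a fibrillin-binding protein, by 2.24 ± 0.14, while Timp4, an inhibitor typical of heart, fell by 0.50.

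Genes of the TGF-beta, activin and BMP families had 19 of 41 higher and 2 lower, with a median of 0.39. Ligand genes Tgfb2 and Tgfb3 rose by 1.46 ± 0.14 and 1.36 ± 0.11, and Tgfb1 had 0.50 ± 0.18 without passing (adjusted p = 0.064). Gdf15, a stress hormone of this family, was at 0 to 2.10 CPM in sham, with 0 in Sham/Air replicate 1, and at 12.5 to 27.0 CPM after TAC (3.65 ± 0.29). Pmepa1, a feedback inhibitor, rose by 1.24 ± 0.11. Bone morphogenetic protein gene Bmp7 fell by 0.97. In the Wnt list 7 of 27 rose and 4 fell, and the 4 members with the smallest p were secreted antagonists: Sfrp2 rose from 2.89 to 5.68 CPM in sham to 44.0 to 52.8 CPM after TAC (3.39 ± 0.16), Frzb by 2.38 ± 0.12, Sfrp1 by 1.61 ± 0.10 and Dkk3 by 1.81 ± 0.17. The ligand gene Wnt5a fell by 0.47.

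Growth factor genes had 15 of 50 higher and 6 lower. Pdgfrl, a receptor-like protein, rose by 1.95 ± 0.13, pleiotrophin gene Ptn by 1.89 ± 0.16 and heparin-binding EGF gene Hbegf by 1.27 ± 0.11. The binding protein gene Igfbp7 rose from 233 to 596 CPM on average. Fibroblast growth factor gene Fgf10 fell from 1.10 to 5.40 CPM to 0.181 to 0.633 CPM (-2.04 ± 0.38, and -1.67 without Sham/Air replicate 1, its highest library), and Igf2 by 0.56. In the interleukin-6 and cytokine list 8 of 33 rose and 2 fell, with 4 higher in the fit of the 2 groups alone. Tnfrsf11b, osteoprotegerin, rose by 3.22 ± 0.38. Il6 itself was at 0 to 0.100 CPM in sham and at 0.236 to 1.09 CPM after TAC. The cytokine gene Il15 fell by 0.87 and the receptor gene Lifr by 0.61.

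Markers of activated fibroblasts had 21 of 26 higher and 1 lower, with a median of 1.61, and summed to 0.0581% to 0.0760% of counts in sham and 0.300% to 0.329% after TAC. Several belong to the matrix lists above. Postn, periostin, ranged from 72.7 to 230 CPM in sham and from 897 to 1058 CPM after TAC (3.16 ± 0.22), with Sham/Air replicate 1 as the highest sham library. Meox1, a transcription factor of activated fibroblasts, ranged from 9.66 to 19 CPM and from 61.5 to 78.5 CPM (2.15 ± 0.15). Lrrc15, used as a marker of fibroblasts in tumours, fell from 26.4 to 47.5 CPM in sham to 18.1 to 22.4 CPM after TAC (-1.03 ± 0.12). Fap, fibroblast activation protein, was at 9.07 ± 3.68 and 9.47 ± 1.29 CPM (0.13 ± 0.19, adjusted p = 0.714), and smooth muscle actin gene Acta2 at 122 and 135 CPM (0.14 ± 0.08, adjusted p = 0.289), so neither passed. Resting fibroblast markers had 8 of 24 higher (5 in the fit of the 2 groups alone) and 3 lower: Pi16 rose by 1.41 ± 0.24 and Medag by 0.80 ± 0.08, while Scara5, a ferritin receptor, fell from 37.2 to 51.1 CPM to 20.8 to 23.5 CPM (-1.06 ± 0.08).

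Stromal and stress transcription factors had 22 of 44 higher and 0 lower, with a median of 0.67. Sox9, the regulator of cartilage genes, rose from 3.67 ± 0.564 to 11.1 ± 0.942 CPM, Runx1 from 3.88 ± 1.46 to 10.4 ± 1.25 CPM and the immediate early gene Egr2 from 0.799 ± 0.256 to 6.81 ± 0.599 CPM. Cardiac transcription and splicing regulators had 2 of 43 higher and 7 lower, with 14 lower under the offsets. The splicing factor gene Rbfox1 fell by 1.08, Tbx5 by 0.51, Klf15 by 0.60 and Ppara, a receptor that activates fat oxidation genes, by 0.42 on the log2 scale. Ppargc1a, the coactivator of mitochondrial genes, was at 123 to 326 CPM in sham and 82.2 to 129 CPM after TAC (-0.71 ± 0.19). Sham/Air replicate 1 held the 326 CPM, and without it the value was -0.44. In the fit of the 2 groups alone Ppargc1a did not pass.

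Leukocyte genes moved in both directions. Of 36 macrophage and monocyte markers 10 rose and 4 fell. Spp1, osteopontin, rose from 1.63 to 3.72 CPM in sham to 17.9 to 23.0 CPM after TAC (2.86 ± 0.22), Cx3cr1, the fractalkine receptor, from 3.41 to 5.11 CPM to 11.2 to 14.4 CPM (1.56 ± 0.14), and the pan-macrophage marker Adgre1 by 0.53 ± 0.09. The 4 members that fell were the scavenger receptor gene Cd163 (-0.81 ± 0.13), Lyve1 (-0.58 ± 0.12), Folr2 (-0.52 ± 0.14) and Retnla (-1.11 ± 0.25). Folr2 did not pass within the libraries of a GC trend over 0.4. Retnla did not pass within those under 0.4, a subset that also left out Sham/Air replicate 1. Among chemokine genes 6 of 22 rose and 2 fell, with a median of 0.00. Fractalkine gene Cx3cl1 rose by 1.31 ± 0.18, and eotaxin gene Ccl11 fell from 6.02 to 19.3 CPM to 1.14 to 3.28 CPM (-2.06 ± 0.28), with Sham/Air replicate 1 at 19.3 CPM. Complement and coagulation genes had 14 of 31 higher (8 in the fit of the 2 groups alone) and 2 lower, led by the inhibitor genes Serpinf1 (1.84 ± 0.11) and Serpina3n (2.16 ± 0.14). Interferon-stimulated genes had 8 of 40 higher and 0 lower, among them Ifi27l2a (0.87 ± 0.18) and Irf9 (0.35 ± 0.09), with 13 higher without Sham/Air replicate 1 and 2 in the fit of the 2 groups alone, where Irf9 did not pass. Of 12 tested neutrophil and mast cell markers 0 rose and 2 fell, the protease genes Mmp8 (-2.29 ± 0.70) and Mcpt4 (-0.98 ± 0.31), and Mcpt4 did not pass without Sham/Air replicate 1 (adjusted p = 0.0506). Of 27 listed lymphocyte markers 4 could be tested and 0 passed, with the T cell gene Cd3e at no more than 0.568 CPM in any library.

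**Figure D4:**
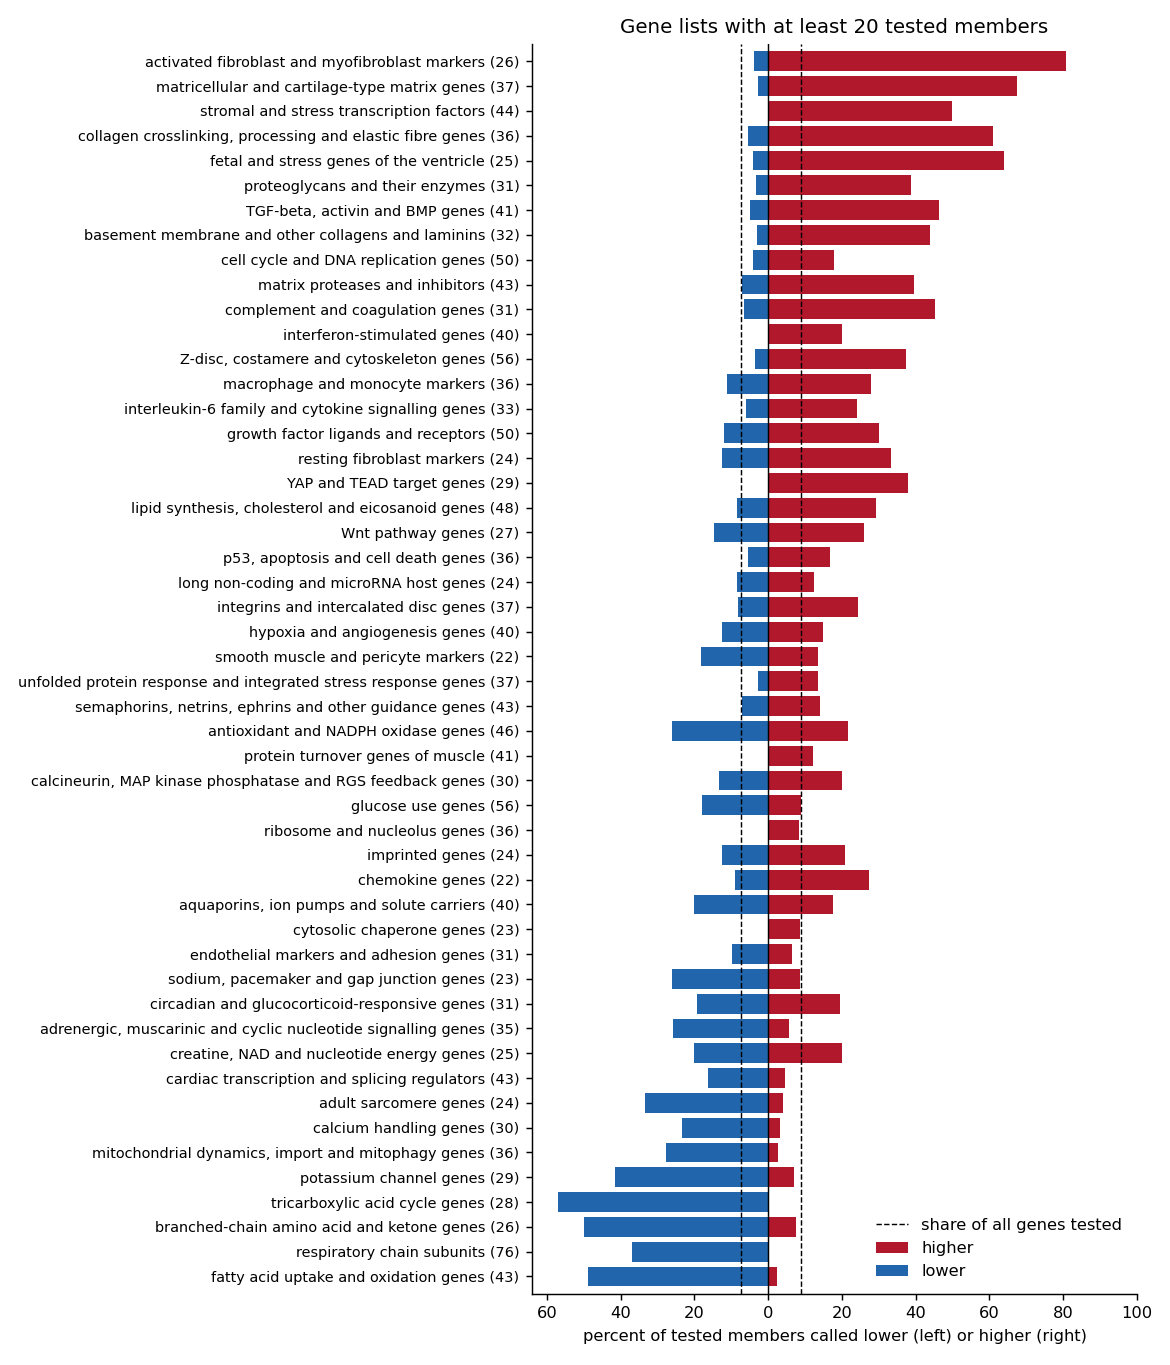
Percent of tested members called higher (right, red) or lower (left, blue) in each gene list with at least 20 tested members, ordered by median log2 fold change; the number tested is in brackets and the dashed lines mark the share of all genes (8.81% higher, 7.35% lower). Fibroblast and matrix lists stand at the top and fat oxidation and respiratory chain lists at the bottom.

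Genes of fuel use fell by small amounts and in large number. Of 43 fatty acid uptake and oxidation genes 21 fell and 1 rose, with a median of -0.37. Acaa2, the thiolase of the last step of mitochondrial beta-oxidation, ranged from 994 to 1185 CPM in sham (median 1136) and from 579 to 690 CPM after TAC (median 637), a log2 fold change of -0.82 ± 0.07 (adjusted p = 4.98e-09). Hadha, of the trifunctional protein, went from 2023 ± 187 to 1360 ± 63.0 CPM, the dehydrogenase gene Acadm from 1955 ± 274 to 1289 ± 81.5 CPM and the thioesterase gene Acot1 from 17.3 ± 1.85 to 6.03 ± 0.852 CPM. For all 4 genes every TAC/Air library lay below every sham library. For Lpl, the lipase that frees fatty acids from lipoproteins, Sham/Air replicate 1 stood at 17256 CPM against 6577 to 9325 CPM in the other sham libraries and 5258 to 7370 CPM after TAC. Its log2 fold change was -0.61 ± 0.18, and -0.34 without that library, and Lpl did not pass in the fit of the 2 groups alone. That fit had 14 of the list lower.

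Of 28 tricarboxylic acid cycle genes 16 fell and 0 rose, and of 76 respiratory chain subunits 28 fell and 0 rose, with medians of -0.29 and -0.33. Sdha, which belongs to both the cycle and the chain, fell from 2093 ± 177 to 1408 ± 78.7 CPM (-0.57 ± 0.07). The complex I gene Ndufa9 went from 650 to 688 CPM in sham to 468 to 561 CPM after TAC (-0.39 ± 0.07), the ATP synthase gene Atp5a1 from 5738 to 4490 CPM on average and the nucleotide carrier gene Slc25a4 from 6516 ± 897 to 4592 ± 1145 CPM. Without Sham/Air replicate 1 the numbers that fell were 24 and 48, and 1 cycle gene rose. In the fit of the 2 groups alone they were 9 and 14, and Slc25a4 did not pass. Mitochondrial dynamics and import genes had 10 of 36 lower, among them the superoxide dismutase gene Sod2 (-0.46 ± 0.08) and the chaperone gene Hspd1 (-0.56 ± 0.12), and 1 higher, the mitophagy receptor gene Bnip3 (0.31 ± 0.07). Without that library 18 fell and 2 rose, and in the fit of the 2 groups alone 5 fell and 1 rose.

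Branched-chain amino acid and ketone genes had 13 of 26 lower and 2 higher, with a median of -0.31. Ppm1k, the phosphatase that switches on branched-chain breakdown, fell by 0.69 and Bckdhb, a subunit of its target enzyme, by 0.74 on the log2 scale. Bdh1, the first enzyme of ketone use, rose from 101 to 191 CPM in sham to 254 to 289 CPM after TAC (0.72 ± 0.10, adjusted p = 9.01e-06). Of 56 glucose use genes 5 rose and 10 fell. Pfkp rose from 62.1 ± 3.91 to 116 ± 4.36 CPM (0.90 ± 0.07), while Ldhb fell by 0.56, the glycogen phosphorylase gene Pygm by 0.44 and Hk2 by 0.40 on the log2 scale. Slc2a1 had a log2 fold change of 0.54 ± 0.20 and Eno1 of 0.43 ± 0.17, and neither passed (adjusted p = 0.073 and 0.0937). Without Sham/Air replicate 1 both passed, and 9 of the list rose and 16 fell. In the fit of the 2 groups alone 2 rose and 7 fell. Nmrk2, a muscle kinase that makes NAD from nicotinamide riboside, rose from 9.94 to 18.2 CPM in sham to 53.2 to 72.2 CPM after TAC (2.06 ± 0.14), while Nampt, the enzyme of the main salvage route to NAD, fell from 439 ± 126 to 267 ± 32.5 CPM.

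Stress response genes moved in both directions. Antioxidant and NADPH oxidase genes had 10 of 46 higher and 12 lower. Nox4, an oxidase that makes hydrogen peroxide, rose from 2.02 to 6.53 CPM in sham to 19.6 to 30.9 CPM after TAC (2.88 ± 0.24) and glutathione peroxidase gene Gpx3 by 0.87 ± 0.08. The glutathione transferase gene Gstk1 fell by 0.72 and the alcohol dehydrogenase gene Adh1 by 1.13. Of 37 unfolded protein and integrated stress response genes 5 rose (3 in the fit of the 2 groups alone), led by Gdf15 and Atf3 (1.22 ± 0.19), and Herpud1, of protein quality control in the endoplasmic reticulum, fell by 0.47. Of 23 cytosolic chaperone genes 2 rose (Hspa1l and Dnaja4), or 8.7%, near the 8.81% of all genes tested. Without Sham/Air replicate 1, 4 of them rose, beside 12.1% of all genes. Of 50 cell cycle genes 9 rose and 2 fell: the nucleotide synthesis gene Tyms rose by 1.08 ± 0.18 and the inhibitor genes Cdkn1a and Cdkn2b by 0.74 ± 0.15 and 1.90 ± 0.33, while the imprinted inhibitor gene Cdkn1c fell by 0.77. Without Sham/Air replicate 1, 14 rose and 3 fell. Cenpf, a centromere protein gene, stood at 145 CPM in Sham/Air replicate 1, at 24 to 37.9 CPM in the other sham libraries and at 7.20 to 12.3 CPM after TAC, so its groups did not overlap (-2.29 ± 0.35, and -1.63 without that library). Of 36 p53 and cell death genes 6 rose and 2 fell, led by Bcl2 (0.84 ± 0.14), and 11 rose without that library.

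Vascular lists had calls in both directions, and endothelial markers were called about as often as all genes tested. Of 31 endothelial markers 2 rose (6.45%) and 3 fell (9.68%), against 8.81% and 7.35% of all genes, with a median of -0.06. Cd34 rose by 0.54 ± 0.06 and Pdpn by 1.00 ± 0.15, while Lyve1, the lymphatic regulator Prox1 (-0.55 ± 0.14) and the capillary enzyme gene Car4 (-0.61 ± 0.14) fell. Of 40 hypoxia and angiogenesis genes 6 rose and 5 fell, and without Sham/Air replicate 1 the numbers were 10 and 7, and in the fit of the 2 groups alone 5 and 3. Angptl7, a secreted angiopoietin-like factor, rose from 7.50 ± 1.98 to 42.8 ± 7.44 CPM, and angiopoietin gene Angpt1 fell from 52.1 ± 24.8 to 27.2 ± 3.49 CPM. Smooth muscle and pericyte markers had 3 of 22 higher and 4 lower, among them smooth muscle myosin gene Myh11 (-0.63 ± 0.13). These calls include Pln and Abcc9, which fell, and Des, which rose. They were also counted above in lists of heart muscle genes, so they are not particular to the vessel wall. Schwann cell and neuronal markers had 3 of 14 higher and 4 lower. Dbh, the noradrenaline-making enzyme of sympathetic nerves, fell by 0.95 on the log2 scale. Piezo2, a mechanically gated channel, rose from 0.852 to 1.95 CPM to 4.71 to 6.63 CPM (2.04 ± 0.20). The proton pump subunit gene Atp6v0a4 rose from 0.325 to 2.27 CPM to 8.01 to 10.1 CPM (4.02 ± 0.25), and the water channel gene Aqp4 fell from 4.89 to 9.66 CPM to 1.18 to 2.12 CPM.

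Transcripts of 3 lung epithelial genes were counted in the sham hearts and hardly in the loaded ones. Scgb1a1, the club cell secretoglobin, had 13 to 88 counts in every sham library (338 in all) and 0 to 4 counts in TAC/Air (10 in all). Sftpc, surfactant protein C, had 7 to 34 counts (100 in all) and 0 to 2 counts (4 in all). Sftpa1, another surfactant gene, had 15 counts over the sham libraries and 0 over the loaded ones, too few to be tested. The fitted log2 fold changes were -5.49 ± 0.42 for Scgb1a1 and -4.90 ± 0.61 for Sftpc. Summed raw counts of the other 11 listed markers went both ways. Lower after TAC were Cyp2f2 with 22 and 12 counts, Ager with 21 and 13, Scgb3a2 with 8 and 0, Sftpd with 5 and 0 and Bpifa1 with 3 and 0. Hopx, which heart muscle also expresses, fell by 0.66 on the log2 scale. Larger sums after TAC were those of Napsa with 29 and 84 counts, Scgb3a1 with 19 and 27, Sftpb with 12 and 15 and Lamp3 with 9 and 10. Slc34a2 had 1 and 1. The sums were not scaled to library size, and the lowest total was 4170660 in Sham/Air and 10479981 in TAC/Air. Small differences between them therefore give no direction. Scaled, Sftpb had a median of 0.21 CPM in sham and 0.124 CPM after TAC. Napsa had 0 to 9 counts per library in sham and 7 to 22 after TAC. Of the 11 markers only Hopx could be tested in the main fit. With the offsets and without Sham/Air replicate 1, 4 of the 14 listed lung markers could be tested, and 1 rose and 3 fell. The sham value for the 4 fixed lung markers summed to at most 10.3 CPM. Whether lung tissue was taken with the sham hearts was not tested.

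The other genes at the bottom of the range were low in abundance. Cyp1a1, a xenobiotic-metabolizing enzyme, fell from 1.14 to 3.90 CPM in sham to 0.0791 to 0.935 CPM after TAC (-2.78 ± 0.77, adjusted p = 0.0123). Kcnip1, a channel-interacting protein, fell by 1.89, the adenylyl cyclase gene Adcy8 by 1.63, the aminopeptidase gene Lvrn by 1.74, the calcium channel subunit gene Cacng6 by 1.58 and chondromodulin gene Cnmd by 1.56 on the log2 scale. Ankrd63 was at 0 in Sham/Air replicate 1 and at 1.81 to 3.09 CPM in the other sham libraries, against 0.390 to 0.814 CPM after TAC. At the top of the range Frem1, a basement membrane protein, rose by 4.23 ± 0.35, Col9a2, a cartilage collagen, by 3.93 ± 0.59, and Ngef, a guanine nucleotide exchange factor, by 3.87 ± 0.35.

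Most of the lists that follow had few calls or calls in both directions. Of all genes tested, 8.81% rose and 7.35% fell. Ribosome and nucleolus genes had 3 of 36 higher and 0 lower, muscle protein turnover genes 5 of 41 and 0, MHC class II genes 1 of 10 and 0, and erythroid genes 0 of 5 in either direction. With the offsets for GC content and length, muscle protein turnover had 4 higher and 5 lower (8 and 0 without Sham/Air replicate 1, and 0 and 0 in the fit of the 2 groups alone), and ribosome and nucleolus genes 4 and 4. Circadian and glucocorticoid-responsive genes had 6 of 31 higher and 6 lower, and 6 and 10 without Sham/Air replicate 1. The clock-linked repressor gene Bhlhe40 rose by 0.78 ± 0.10, while the output gene Hlf fell by 0.64. The lipid synthesis and eicosanoid list leaned to rises, with 14 of 48 higher (29.2%) and 4 lower (8.33%). The prostacyclin synthase gene Ptgis stood at 1.28 ± 0.19 and the phospholipase gene Pla2g5 at -1.08 ± 0.16. Guidance genes had 6 of 43 higher and 3 lower, long non-coding genes 3 of 24 and 2, and imprinted genes 5 of 24 and 3. In the fit of the 2 groups alone 2 imprinted genes rose, and with the offsets 10 guidance genes rose and 8 fell. Malat1, an abundant nuclear transcript, stood at 1791 CPM in Sham/Air replicate 1, 510 to 684 CPM in the other sham libraries and 397 to 520 CPM after TAC, and its log2 fold change went from -0.75 ± 0.23 to -0.33 without that library.

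Leaving out Sham/Air replicate 1 changed which differences passed, and not the direction of those called both ways. Without it, 3169 of 13665 genes were called (23.2%), 1652 higher (12.1%) and 1517 lower (11.1%). Of the 2193 genes called with all libraries, 2101 were called without it and every one of these had the same sign, 92 were not called, and 1068 were called only without it. Both fits share all the other libraries, so the same sign was likely from the start. The log2 fold change without it was 3.71 for Nppa, 3.26 for Myh7, 2.62 for Ccn2, 1.71 for Col3a1, 3.81 for Cilp and -0.86 for Acaa2.

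**Figure D5:**
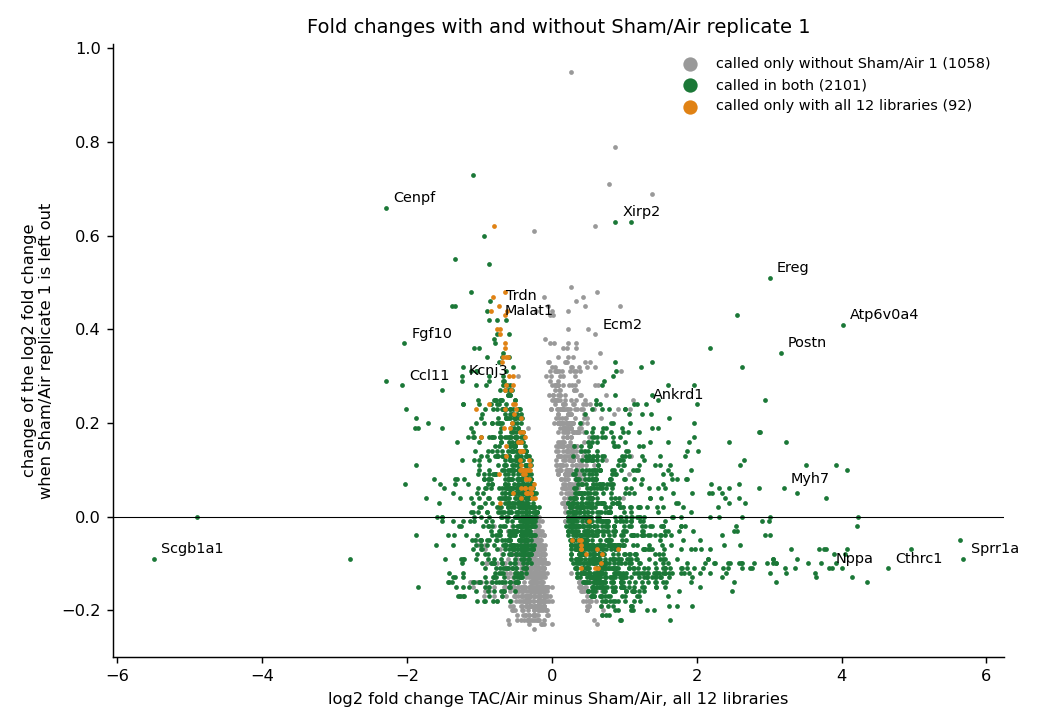
Change of each log2 fold change when Sham/Air replicate 1 is left out, against the log2 fold change with all 12 libraries; green, called both ways (2101); orange, called only with all libraries (92); grey, called only without it and tested both ways (1058). Xirp2 moved up, from 0.88 to 1.51, and Cenpf from -2.29 to -1.63.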

How the data were processed

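The authors deposited whole-number read counts per gene symbol for 24 libraries in 1 table. FastQC 0.11.9, STAR, DESeq2 and the build mm9 are named per the submitters' processing notes. Not given in the sources used here were the read counter, its strand setting and the annotation, so overlapping, antisense and near-identical genes could share reads. The table held 25229 symbols, of which 5678 had no count in any library. Groups came from GEO's labels, and no sample was dropped.

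Counts were fitted with edgeR 4.0.16 (R 4.3.3) by the quasi-likelihood test on all 24 libraries in 4 groups, which share 1 estimate of the spread. The low-count filter (minimum count 10, minimum total 15) left 13571 genes, and the genes it removed held 0.0747% of counts. Libraries were TMM-scaled, and p-values were adjusted by Benjamini-Hochberg over all genes tested, with a threshold of 0.05. A gene's groups did not overlap where the ranges of its CPM were apart. Shares within 20 isoform pairs were compared by a two-sided exact permutation test over libraries, adjusted over the pairs. The scripts were tested on simulated data with planted changes. For the offsets, each symbol took the values of its longest transcript in the GENCODE annotation, and 97.9% of symbols had both GC content and length.

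The comparison, the 62 gene lists (1994 symbols, 1985 matched, 5 of them through a synonym), the pairs and the tests were chosen with earlier results of these data known. Named genes were the called genes averaging 1 CPM or more with the 15 highest and the 15 lowest fold changes, the 6 smallest p-values of each list, 6 stress and contractile genes, the 10 largest gains and losses in CPM, the pairs, and families counted by name. Acta2, Bmp7, Fap, Fhod3, Kcne4, Kcnk2, Lrrc15, Spon1, Timp4, Trdn, Tuba4a and Wnt5a fall outside these and were chosen after their values were seen. Alternatives were DESeq2 1.42.0, limma 3.58.1 (voom with quality weights), other size factors and filters, a fit of 2 groups, a replicate block, offsets for GC content and length, each library left out, and 2 subsets by GC trend. Values of a few members are left out here.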

Additional observations from a re-analysis of the deposited data

Results flagged for a closer look

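For 89 of the 228 genes named here, 1 library of a group of 6 lay apart from the other 5 by more than Dixon's critical value for 6 samples allows. Col3a1, Hadha, Myh11 and Sln had such a library in both groups. Chance alone flags about 1 in 20 groups. Sham/Air replicate 1 was that library for 82 of them, as the highest for 49 and as the lowest for 33, and its values follow in CPM. As the highest library it held Abcc9 at 1119, Acadm at 2506, Angpt1 at 101, Ankrd1 at 4099, Atp2a2 at 23282, Atp6v0a4 at 2.27, Bckdhb at 116, Bcl2 at 33, Car4 at 26.4, Ccl11 at 19.3, Cdkn1c at 79.6, Cenpf at 145, Chrm2 at 78.4, Col14a1 at 30.1, Col5a2 at 66.8, Dsg2 at 233 and Fap at 16.2. It was also the highest for Fgf10 at 5.4, Hlf at 92.3, Hrc at 2541, Hspd1 at 1105, Kcnd2 at 43.5, Kcnj3 at 250, Lox at 18.8, Lpl at 17256, Malat1 at 1791, Mas1 at 3.41, Mcpt4 at 3.13, Myh11 at 207, Myh6 at 42092, Myh7 at 424, Nampt at 684, Pde4d at 82.4 and Pfkp at 69.6. Further highest values were Pln at 16082, Postn at 230, Ppargc1a at 326, Prox1 at 185, Ptn at 8.81, Rbfox1 at 96.9, Ryr2 at 2882, Sdha at 2437, Sod2 at 1009, Tgfb2 at 30.1, Thbs4 at 19.9, Thrb at 58, Tpm1 at 14873, Trdn at 1516 and Xirp2 at 3301. As the lowest library it held Acaa2 at 994, Ace at 63.6, Acta1 at 279, Ankrd23 at 210, Atp5a1 at 4327, Bdh1 at 101, Cdkn1a at 8.81, Ckb at 7.67, Ckm at 1523, Col27a1 at 0, Col3a1 at 161, Des at 989, Eno1 at 52, Eno3 at 877, Hadha at 1652, Herpud1 at 187 and Ldha at 545. It was also the lowest for Loxl3 at 2.84, Ltbp2 at 3.41, Meox1 at 9.66, Mmp2 at 43.5, Nppa at 155, Nppb at 123, Pfkm at 761, Pi16 at 13.9, Ptgis at 6.53, Rcan1 at 61.4, Rxrg at 69, Serpina3n at 15.6, Slc2a4 at 88.9, Sln at 2.84, Timp4 at 33.8 and Tuba4a at 424. Sham/Air replicate 3 was the highest for Grk5 at 41 and Kcnv2 at 22.6. Sham/Air replicate 3 was the lowest for Fn1 at 54.3. TAC/Air replicate 1 was the highest for Kcne4 at 11.5. TAC/Air replicate 3 was the highest for Myh11 at 89.2 and Scn10a at 1.78. TAC/Air replicate 4 was the highest for Sln at 7.09. TAC/Air replicate 4 was the lowest for Col3a1 at 663, Col5a1 at 70.2 and Hadha at 1242. TAC/Air replicate 5 was the highest for Frzb at 52.6.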

How the results depend on the processing

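Among the 212 named genes that passed, 0 changed direction in the 23 alternatives. Most were named for large changes or small p-values in the main fit, and the alternatives reuse its libraries. Reversals were therefore unlikely from the start. The 2193 genes called became 3734 with limma-voom and quality weights, 1278 when the 2 groups were fitted alone, 3751 with offsets for GC content and length and 4359 with these offsets and without Sham/Air replicate 1. The cause was not tested. Leaving out 1 library gave 1907 to 3169 calls. The 1288 genes whose groups do not overlap became 1364 to 2087 with 1 library left out (2087 without Sham/Air replicate 1). They were 2840 with the offsets and without Sham/Air replicate 1. Within air libraries of a GC trend over 0.4 and under 0.4 they were 5221 and 6440, where fewer libraries make overlap rarer. Both subsets were chosen after seeing the data. The second also left out Sham/Air replicate 1, so it held Sham/Air replicates 2 and 3 and TAC/Air replicates 4 to 6. List members called numbered 645, 977 with the offsets and without Sham/Air replicate 1, and 592 to 848 with 1 library left out. The isoform pairs that passed numbered 12, and 12 to 16 with 1 library left out.

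Of 54 list counts of at least 5, 19 fell over 1.5 times in the fit of the 2 groups alone, 4 and 16 in the subsets of a GC trend over and under 0.4, and 3 with the replicate block, while 12 rose as much with the offsets and 12 without Sham/Air replicate 1. Sarcomere genes that fell numbered 4 in the subset over 0.4, and calcium genes and adrenergic genes 4 each in the subset under 0.4. Of the named genes that passed, 24 no longer did in the fit of the 2 groups alone (Ckb, Ckm, Col27a1, Des, Eno3, Irf9, Kcnd3, Kcne4, Lpl, Malat1, Mcpt4, Pde4d, Pfkm, Pln, Ppargc1a, Prox1, Slc25a4, Spon1, Thrb, Tnnt2, Tpm1, Trdn, Wnt5a and Xirp2), 17 and 28 in the GC trend subsets, and up to 5 with 1 library left out. Xirp2 had adjusted p of 0.188 in the fit of the 2 groups and 0.0607 to 0.0766 with any of 7 single libraries left out. The call was lost with single libraries left out also for Slc25a4 (Sham/Air replicate 5, TAC/Air replicates 4 to 6), Mmp8 (Sham/Air replicate 3, TAC/Air replicates 1, 3 and 6), Mcpt4 and Trdn (Sham/Air replicate 1, TAC/Air replicates 1 and 3), Col27a1 (Sham/Air replicate 2, TAC/Air replicates 1 to 3), and Ckb and Eno3 (7 to 8 libraries each). Same-numbered libraries of the 2 groups did not deviate together, with correlations of -0.53 to -0.02. Their GC trends also differed, as with 0.58 in Sham/Air replicate 4 and -0.37 in TAC/Air replicate 4. The check therefore cannot settle whether the numbers pair them. The replicate block gave 1867 calls and 583 called list members. At the lowest depth, 4170660 counts in Sham/Air replicate 1, genes under 1 CPM rest on few counts.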
